A study of Mus musculus with 9 samples.

Results

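The 10 genes described here are targets of the glucocorticoid receptor, together with the receptor itself: Nr3c1, Fkbp5, Tsc22d3, Zfp36, Klf9, Per1, Ddit4, Sgk1, Txnip and Cd163. They were taken by gene symbol from the deposited tables, 10 of 23234 rows, and each symbol had 1 row in every library. They were selected on background knowledge and on measured values of these same libraries: the level of Fkbp5 per library and the difference between the monocyte subsets. The subset values of these genes are therefore a description, and no p is given for them.

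RNA was measured by SMART-Seq v4 sequencing in blood monocytes (CD11b+) of C57BL/6 mice, 8 months old, all carrying Yaa, a Y chromosome with a translocated X segment that holds Tlr7. Each of 9 libraries came from about 100000 sorted cells. Gr-1, an epitope of Ly6C and Ly6G, split them into classical (Gr-1+) and nonclassical (Gr-1-) cells, and both subsets came from mice altered at Fcgr2, the gene of the inhibitory IgG receptor CD32, listed as Fcgr2b. Of 4 Gr-1+ libraries, 2 were from Fcgr2-/-.Yaa mice (called null), 1 from CEBPaCre;Fcgr2 fl/fl.Yaa and 1 from CD19Cre;Fcgr2 fl/fl.Yaa. Of 5 Gr-1- libraries, 1 each was from Fcgr2-/-.Yaa, CEBPaCre;Fcgr2 fl/fl.Yaa, CD11cCre;Fcgr2 fl/fl.Yaa, CD19Cre;Fcgr2 fl/fl.Yaa and Fcgr2 fl/fl.Yaa without Cre (floxed). The Cebpa driver acts in myeloid cells, the CD11c driver in dendritic cells and some monocytes, and the Cre of CD19Cre mice in B cells, so CD19Cre and floxed monocytes should keep the gene. Every group analysed here carried an altered Fcgr2 locus and Yaa, and the labels do not name treatment, time of blood collection or which libraries share a mouse.

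Glucocorticoids are adrenal steroids whose blood level follows the time of day and rises with stress. In the cytoplasm their receptor is held by Hsp90 and co-chaperones, and after binding the hormone it moves to the nucleus and acts at glucocorticoid response elements, many of them far from the gene start. In monocytes it raises anti-inflammatory genes and lowers cytokine genes, and several of its targets, Fkbp5 among them, are widely used readouts of hormone exposure.

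The promoters of 4 of these genes are shown because they carry the letters of a receptor element or of an E-box, the sequence bound by clock and glucose-sensing factors. They are read from RefSeq windows on GRCm38.p6 (250 bases before and 50 after each gene start), with annotated exon bases removed. The expression values themselves were made on mm9. In Sgk1 (chr10:21993640-21993889, plus strand) the capitals mark a full glucocorticoid response element, which is 2 half-sites (AGAACA) in opposite orientation with 3 bases between them. In Tsc22d3 (chrX:140600660-140600772, minus strand) they mark a half-site, AGAACA on the other strand. In Per1 (chr11:69098699-69098947, plus strand) and Fkbp5 (chr17:28486150-28486399, minus strand) they mark the E-box CACGTG.
Sgk1: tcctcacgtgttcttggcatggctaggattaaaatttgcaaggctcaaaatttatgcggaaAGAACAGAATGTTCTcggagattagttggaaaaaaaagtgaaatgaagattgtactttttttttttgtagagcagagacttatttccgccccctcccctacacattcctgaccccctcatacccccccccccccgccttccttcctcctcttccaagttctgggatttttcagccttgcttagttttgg
Tsc22d3: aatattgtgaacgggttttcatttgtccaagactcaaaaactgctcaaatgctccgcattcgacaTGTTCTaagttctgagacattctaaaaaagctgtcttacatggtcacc
Per1: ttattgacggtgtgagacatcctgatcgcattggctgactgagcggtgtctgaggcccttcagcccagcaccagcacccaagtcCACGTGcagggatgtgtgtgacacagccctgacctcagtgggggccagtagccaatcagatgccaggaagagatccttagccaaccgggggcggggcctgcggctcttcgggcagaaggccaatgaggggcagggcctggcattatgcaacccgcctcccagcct
Fkbp5: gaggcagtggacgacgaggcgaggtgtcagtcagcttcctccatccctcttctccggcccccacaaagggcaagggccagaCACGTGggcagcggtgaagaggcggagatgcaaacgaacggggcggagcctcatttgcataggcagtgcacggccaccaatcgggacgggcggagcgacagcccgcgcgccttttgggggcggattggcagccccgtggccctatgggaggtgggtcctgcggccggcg

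Windows were found for 9 of the 10 genes, 17 windows in all because some genes have several starts. On either strand, the full element occurred in 3 of 32851 windows (0.00913%), and 1 of these 3 was an Sgk1 window, with the element 174 bases before the start. Sgk1 has 6 windows, and the other 5 lacked it. The half-site, which the full element contains 2 times, occurred in 19% of all windows and in windows of Cd163, Sgk1 and Tsc22d3. The E-box occurred in 7.15% of all windows and in windows of Fkbp5, Per1 and Sgk1. These are matches of letters within 300 bases and do not show binding.

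Each library listed between 9783 and 10258 genes at 1 FPKM or more (fragments scaled to transcript length and to the fragments mapped, made by the authors). No read counts are given, so absolute depth is unknown; the steps between low values put relative depth at 0.705 to 2.66 times that of the floxed library. The sorted subsets carried their markers: 7 classical monocyte genes summed to 2293 to 3557 FPKM in Gr-1+ libraries, against 139 to 255 FPKM in Gr-1-, and 8 nonclassical genes summed to 422 to 637 FPKM in Gr-1+, against 1594 to 2883 FPKM in Gr-1-. Fcgr2b RNA did not separate as labelled, at 137 ± 45.1 FPKM where monocytes should lack it (5 libraries) and 125 ± 62.5 FPKM where they should keep it (3 libraries). The CD19Cre libraries stood apart from the other 7. Ribosomal protein genes took 1.99% and 2.28% of their FPKM, against 3.68% to 7.74% in the others.

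Nr3c1 encodes the glucocorticoid receptor. In Gr-1+ libraries it was at 17.0 and 14.6 FPKM in null, 18.4 FPKM in CEBPaCre and 32.6 FPKM in CD19Cre. In Gr-1- libraries it was at 25.8 FPKM in null, 27.9 in CEBPaCre, 31.9 in CD11cCre, 33.9 in CD19Cre and 19.1 in floxed. Its range over the 9 libraries, 2.33-fold, was the narrowest of the 10 genes. In FPKM as deposited, the CD19Cre libraries held the highest levels, above all other 7 libraries. The margin over the CD11cCre library, 32.6 against 31.9 FPKM, is small beside the unequal library medians. Over genes at 1 FPKM or more in every library, these were 15.2 and 14.5 FPKM in CD19Cre and 13.5 in CD11cCre. The subsets overlapped through the Gr-1+ CD19Cre library, the others of Gr-1+ being below all of Gr-1-. In bulk samples, more cells expressing a gene and more RNA per cell cannot be told apart.

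Fkbp5 encodes FKBP51, a co-chaperone of Hsp90 that lowers the receptor's affinity for hormone and is itself induced by the receptor, a feedback loop. It was at 22.5 and 9.79 FPKM in null, 5.03 in CEBPaCre and 12.7 in CD19Cre Gr-1+ libraries. In Gr-1- libraries it was at 42.4 FPKM in null, 6.11 in CEBPaCre, 6.31 in CD11cCre, 15.4 in CD19Cre and 3.97 in floxed. The libraries therefore spanned 10.7-fold, while the Gr-1+ mean of 12.5 ± 7.36 FPKM (SD, n = 4) lay within the Gr-1- range, whose median was 6.31 FPKM (n = 5). In both subsets the CEBPaCre library lay below the CD19Cre library, and the highest library was a null one. The 3 null libraries differed among themselves by more than the CEBPaCre or CD19Cre libraries did across subsets, and the second Gr-1+ null library lay below the CD19Cre one.

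Tsc22d3 encodes GILZ, a glucocorticoid-induced protein that restrains NF-kB and AP-1. Its levels ran nearly opposite to those of Fkbp5. Gr-1+ libraries held 125 and 188 FPKM in null, 324 in CEBPaCre and 238 in CD19Cre. Gr-1- libraries held 156 FPKM in null, 444 in CEBPaCre, 407 in CD11cCre, 318 in CD19Cre and 216 in floxed. In each subset the null library with most Fkbp5 had the least Tsc22d3, and the CEBPaCre library had the most. The floxed library departed from this, being low in both genes.

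Zfp36 encodes tristetraprolin, which binds AU-rich elements and speeds the decay of cytokine mRNAs such as Tnf. It had the highest mean of the 10 genes, and was at 862 and 274 FPKM in null, 419 in CEBPaCre and 215 in CD19Cre Gr-1+ libraries. Gr-1- libraries held 539 FPKM in null, 480.2 in CEBPaCre, 1124 in CD11cCre, 329 in CD19Cre and 430.1 in floxed. The CD19Cre library was the lowest of each subset, and the 2 Gr-1+ null libraries differed by more than the subset means, which were 442 ± 292 FPKM in Gr-1+, against 580 ± 313 FPKM in Gr-1-.

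Klf9 encodes a Kruppel-like transcription factor that is a direct receptor target in many tissues. It was at 6.99 and 4.73 FPKM in null, 2.36 in CEBPaCre and 3.38 in CD19Cre Gr-1+ libraries. Gr-1- libraries held 8.65 FPKM in null, 4.49 in CEBPaCre, 6.64 in CD11cCre, 7.29 in CD19Cre and 4.41 in floxed. The Gr-1- libraries followed the order of Fkbp5 exactly, with CEBPaCre and floxed nearly tied for Klf9, and the subsets overlapped.

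Per1 encodes a repressor of the circadian clock that glucocorticoids also induce. It was at 6.32 and 4.15 FPKM in null, 4.91 in CEBPaCre and 1.08 in CD19Cre Gr-1+ libraries. Gr-1- libraries held 3.63 FPKM in null, 5.63 in CEBPaCre, 6.89 in CD11cCre, 1.15 in CD19Cre and 4.14 in floxed. Both CD19Cre libraries lay below the other 7, and the subset means were nearly equal, 4.11 ± 2.22 FPKM in Gr-1+, against 4.29 ± 2.17 FPKM in Gr-1-.

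Ddit4 encodes REDD1, an inhibitor of the growth kinase mTORC1 that is induced by stress, low oxygen and glucocorticoids. Gr-1+ libraries held 2.03 and 4.98 FPKM in null, 4.74 in CEBPaCre and 1.57 in CD19Cre. Gr-1- libraries held 14.8 FPKM in null, 32.9 in CEBPaCre, 21.8 in CD11cCre, 11.7 in CD19Cre and 24.4 in floxed. Every Gr-1- library lay above every Gr-1+ library, and in each subset the CD19Cre library was the lowest. The 20.9-fold range over the 9 libraries was the widest of the 10 genes.

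Sgk1 encodes a kinase that controls ion channels and transporters and was named for its induction by serum and glucocorticoid. It was at 99.6 and 54.7 FPKM in null, 65.0 in CEBPaCre and 65.7 in CD19Cre Gr-1+ libraries. Gr-1- libraries held 99.4 FPKM in null, 135 in CEBPaCre, 181 in CD11cCre, 119.7 in CD19Cre and 94.2 in floxed. The subsets overlapped through 1 library, the first Gr-1+ null one, which passed the Gr-1- null and floxed libraries by a small margin. This is the gene whose promoter window holds the full response element shown above.

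Txnip encodes an inhibitor of thioredoxin that also limits glucose uptake and is driven by glucose-sensing factors at E-box-like elements. It was at 78.2 and 70.02 FPKM in null, 183 in CEBPaCre and 21.9 in CD19Cre Gr-1+ libraries. Gr-1- libraries held 79.8 FPKM in null, 156 in CEBPaCre, 145 in CD11cCre, 27.5 in CD19Cre and 82.7 in floxed. The CEBPaCre library was the highest and the CD19Cre library the lowest of each subset, and the subsets overlapped.

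Cd163 encodes the scavenger receptor for haemoglobin bound to haptoglobin, a marker of glucocorticoid-treated monocytes in humans and of tissue macrophages. It ran from 0.249 to 1.04 FPKM in Gr-1+, against 0.41 to 0.783 FPKM in Gr-1- libraries. Its mean over the 9 libraries was below 1 FPKM, so it did not enter the fits below. The 8 tissue macrophage genes summed to 14.3 to 26.5 FPKM in Gr-1+ and 3.23 to 32.3 FPKM in Gr-1- libraries, and 4 of them (Timd4, Vsig4, Lyve1 and Folr2) were below 1 FPKM in every library.

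**Figure D1:**
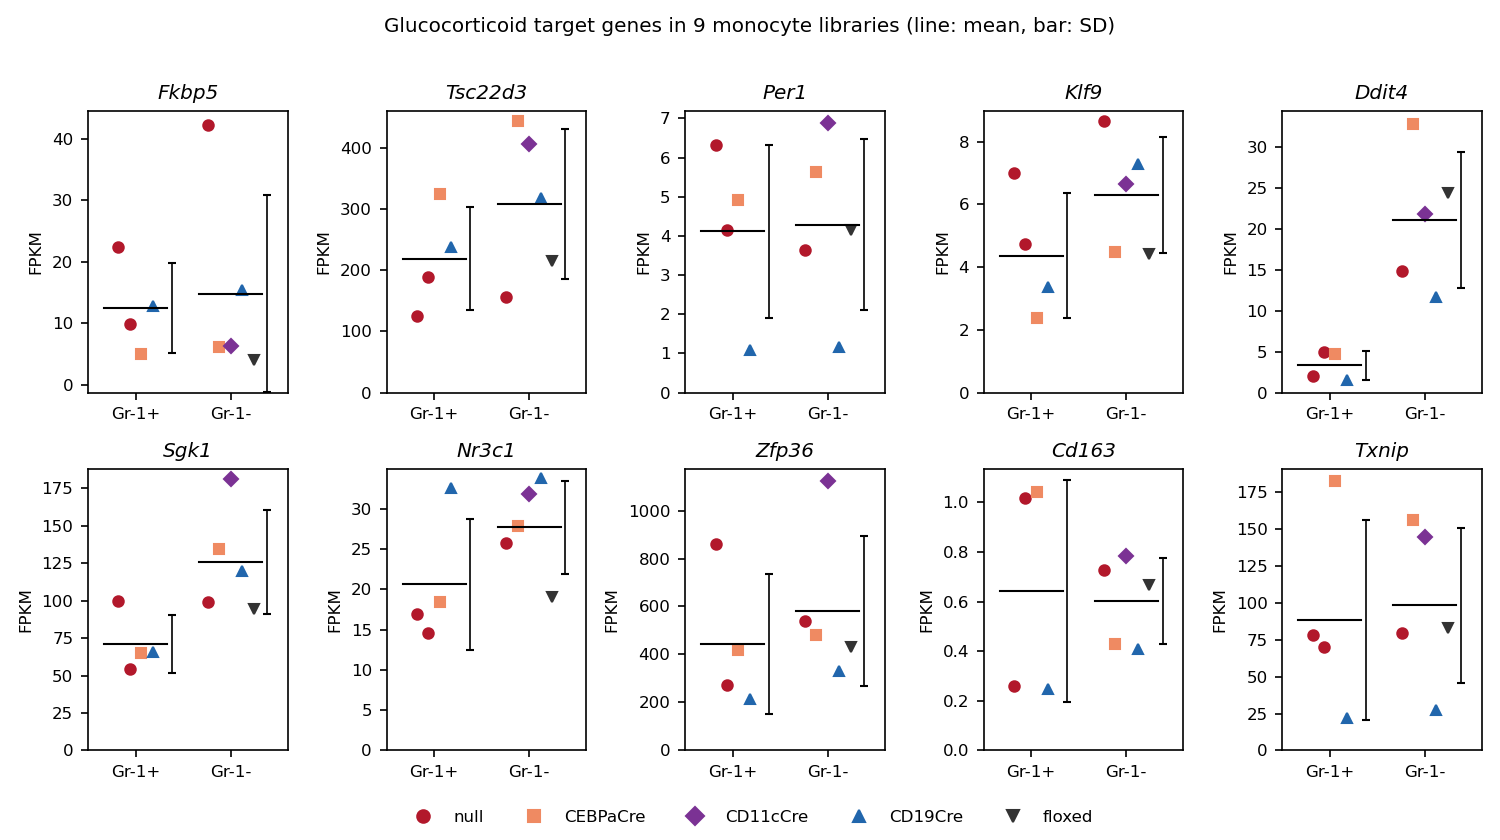
FPKM (linear axes) of the 10 genes in each library, with points coloured by genotype and bars for the mean and SD of 4 Gr-1+ and 5 Gr-1- libraries. Ddit4 is the gene whose subsets do not overlap. The CD19Cre points are lowest of each subset for Per1, Ddit4, Zfp36 and Txnip, and by a small margin for Cd163.

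Whether the targets shared an order of libraries with Fkbp5 was counted over pairs of libraries within a subset, 6 pairs in Gr-1+ and 10 in Gr-1-. Klf9 had the same order as Fkbp5 in 15 of 16 pairs. Sgk1 and Nr3c1 shared 10 pairs and Zfp36 shared 9. Per1 shared 7 pairs, Cd163 6, Txnip 5, and Tsc22d3 and Ddit4 4 each. The 9 genes had a median of 7 shared pairs, against 8 (quartiles 7 and 10) over all tested genes. Of the tested genes, 0.173% shared at least as many pairs as Klf9, and 5.07% shared as few as Tsc22d3 or Ddit4. The choice of genes used the level of Fkbp5 per library. These shares are therefore a description of the extremes of the 9 genes and do not stand for a p.

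The targets and the receptor gene therefore did not keep 1 common order of libraries. Of these genes, 4 were above 8 of 16 pairs, Nr3c1 among them, and 5 were below. Deviations from the subset mean gave the same picture, with Pearson r against Fkbp5 of 0.81 for Klf9 and 0.18 for Nr3c1, and of -0.68 for Tsc22d3 and -0.70 for Ddit4 (9 libraries, log2 scale). These correlations describe libraries that share 2 subsets and a few genotypes, and they carry no p. Without the floxed library the share of pairs that Tsc22d3 kept with Fkbp5 was 8.33%, against 25% with it. For Klf9 the share was 87.5% after scaling each library to a common median, against 93.75% without that scaling. With the scaling Sgk1 fell from 62.5% to 50% and Zfp36 from 56.25% to 50%, so both left the side above 8 pairs. Nr3c1 rose from 62.5% to 68.75%.

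**Figure D2:**
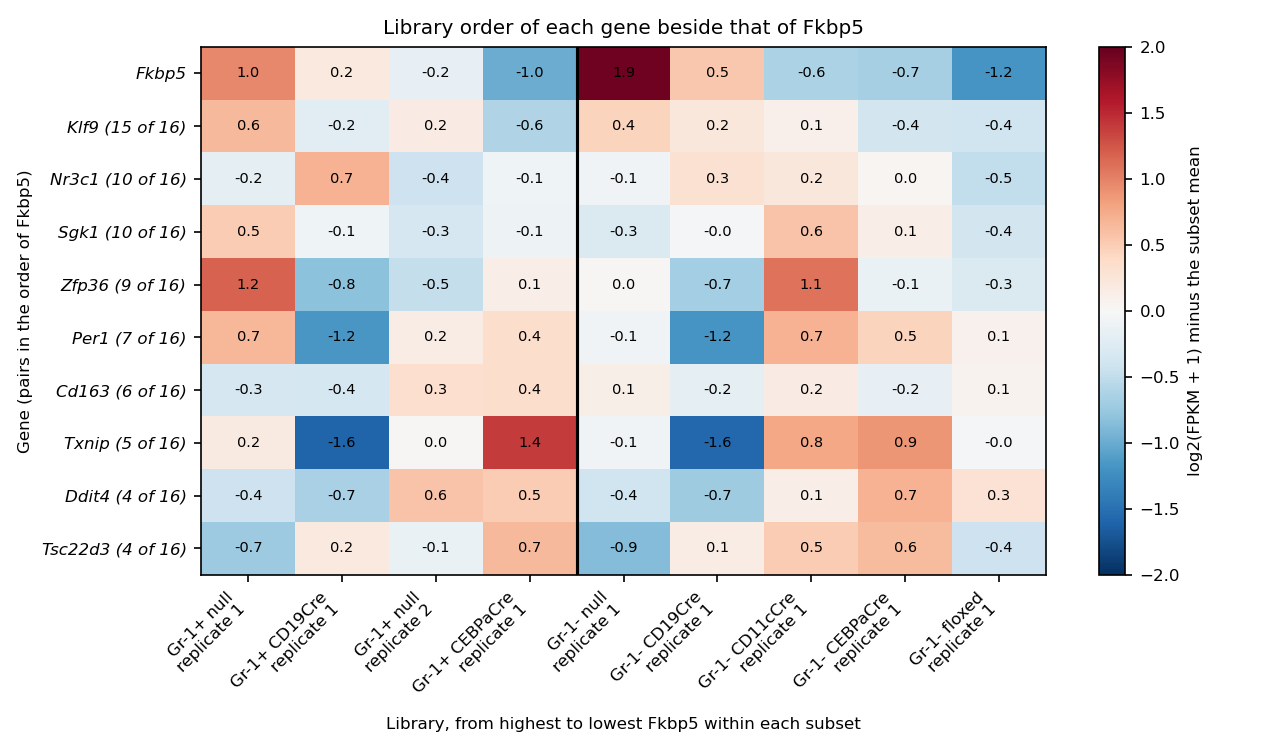
Heat map of log2(FPKM + 1) minus the subset mean for the 10 genes (rows, with the pairs of 16 shared with Fkbp5) in the 9 libraries (columns, from highest to lowest Fkbp5 within Gr-1+ and then within Gr-1-); red is above and blue below the subset mean. Klf9 (15 of 16) fades from left to right in Gr-1- as Fkbp5 does. In Gr-1+ it does so except in CD19Cre, which is below the second null library. Tsc22d3 (4 of 16) runs largely the other way, and the CD19Cre columns are the bluest for Per1 and Txnip.

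After Fkbp5 and Klf9, other pairs of these genes shared the next most. Per1 and Txnip had the same order in 14 of 16 pairs (r = 0.91), Per1 and Zfp36 in 14 (r = 0.79), and Ddit4 and Txnip in 13 (r = 0.79). Zfp36 and Cd163 also shared 13 pairs, but with r = 0.053. Except for Cd163, these pairs draw on Per1, Txnip, Zfp36 and Ddit4. The CD19Cre library was the lowest of each subset for these 4 genes and for Cd163. Tsc22d3 and Klf9 shared the fewest, 3 pairs (r = -0.68).

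The genes most like Fkbp5 were ranked by r over the 9 libraries among 6648 genes whose mean reached 5 FPKM, leaving out the 10 genes themselves, predicted genes and small RNAs. The first was Mt1, a metallothionein that binds zinc and copper and is induced by glucocorticoids and metals (r = 0.94, 15 of 16 pairs). With 6648 genes and 9 libraries, some high r can arise by chance, so the ranking is a description and carries no p. Mt1 was at 85.5 and 29.3 FPKM in null, 24.1 in CEBPaCre and 42.0 in CD19Cre Gr-1+ libraries. Gr-1- libraries held 47.3 FPKM in null, 19.6 in CEBPaCre, 16.5 in CD11cCre, 28.9 in CD19Cre and 11.0 in floxed. As with Fkbp5, the first Gr-1+ null and the Gr-1- null libraries were highest and the floxed library was lowest of all.

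Next came Gda, guanine deaminase (r = 0.89), Cd38, an ectoenzyme that consumes NAD (0.88), Gpr31c (0.88), Pram1, an adaptor of myeloid cells (0.87), Chi3l3, the chitinase-like protein Ym1 (0.85), Dpep2, a dipeptidase (0.85), and Pola2, a subunit of DNA polymerase alpha (0.84). Chi3l3 had the widest span, at 6304, 3240, 379 and 1122 FPKM in the 2 null, the CEBPaCre and the CD19Cre Gr-1+ libraries, and at 10.8 to 223 FPKM in Gr-1- libraries. With 8 of the other 9 genes added whatever their mean (all but Cd163), Klf9 ranked 18th, Nr3c1 1611th, Tsc22d3 6534th and Ddit4 6550th of 6656 genes.

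**Figure D3:**
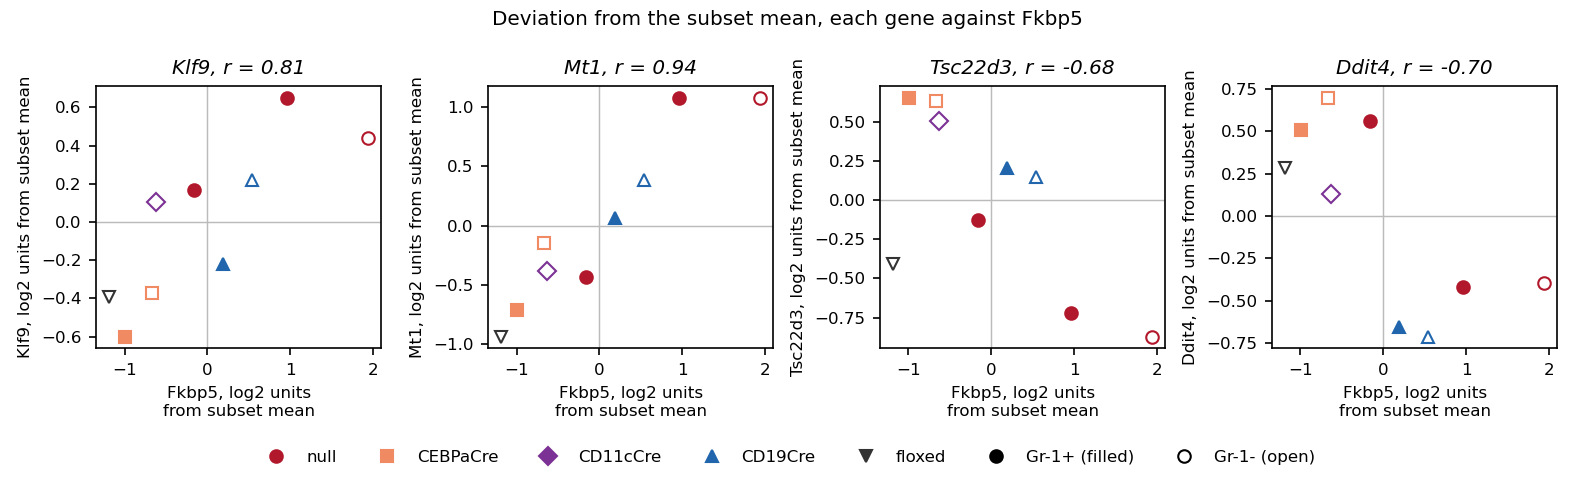
Log2(FPKM + 1) minus the subset mean for Fkbp5 (horizontal axis) and for Mt1, Klf9, Tsc22d3 and Ddit4 (vertical axes), 1 point per library, 9 libraries. Mt1 (r = 0.94) and Klf9 (r = 0.81) slope upward, and Tsc22d3 (r = -0.68) and Ddit4 (r = -0.70) slope downward, and the first Gr-1+ null and the Gr-1- null libraries lie at the right.

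Gr-1+ was set against Gr-1- by a linear model (limma) on log2(FPKM + 1) over all 10436 genes whose mean reached 1 FPKM, called at an adjusted p of 0.05 or less. Of the 9 genes that entered, 1 was past this threshold, Ddit4, which was 5.16-fold higher in Gr-1- (log2 difference -2.37 ± 0.34, SE). Of all genes tested, 14.8% were called, 8.84% as higher in Gr-1+ and 5.95% as higher in Gr-1-. In FPKM as deposited, Ddit4 was also the only gene without overlap between subsets, and Sgk1 overlapped through 1 library by a small margin. Over all genes tested, 16.5% did not overlap, with 6.26% higher in Gr-1-. The choice of the 10 genes used these subset values, so nothing is read from either count. Scaling each library to a common median gave 987 genes as higher in Gr-1+ and 978 as higher in Gr-1-, against 923 and 621 without it.

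The log2 difference was -0.81 ± 0.25 for Sgk1, 1.75-fold higher in Gr-1-. It was -0.48 ± 0.28 for Klf9, -0.47 ± 0.36 for Tsc22d3, -0.47 ± 0.44 for Zfp36, -0.45 ± 0.26 for Nr3c1, -0.28 ± 0.61 for Txnip, -0.065 ± 0.43 for Per1 and 0.092 ± 0.60 for Fkbp5. Of the 9 differences 8 were below 0, with a median of -0.47, against 0.089 over all genes tested. The share of all tested genes below 0 was not computed. Because the choice of genes used these values, nothing is read from this count or median. The sign for Fkbp5 was not stable: it was -0.019 after median scaling and -0.73 with genotype as a block. That scaling moved the median of all genes by -0.11, and under it Sgk1 was at -0.94 and Nr3c1 at -0.57.

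Compared within a genotype, some of these genes kept the same direction throughout. Fkbp5 was lower in Gr-1+ than in the Gr-1- library of the same genotype in 4 of 4 comparisons, with Gr-1- 1.21-fold to 4.33-fold higher; 2 of the 4 share the Gr-1- null library. Klf9 (1.24-fold to 2.16-fold), Ddit4 (2.98-fold to 7.48-fold) and Nr3c1 (1.04-fold to 1.77-fold) were also higher in Gr-1- in all 4. Tsc22d3, Sgk1, Zfp36 and Txnip were higher in Gr-1- in 3 of 4, and Per1 and Cd163 in 2 of 4. The share of all tested genes that were higher in Gr-1- in all 4 was not computed. The choice of genes also used the subset values, so these counts are a description only. With genotype as a block, the log2 difference was -0.69 for Klf9 and -2.22 for Ddit4.

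Genes of other leukocytes were at unequal levels in the subsets. For NK cells, 9 genes summed to 1.49 to 2.03 FPKM in Gr-1+, against 23.5 to 452 FPKM in Gr-1- libraries, and Ncr1, an NK receptor, was listed at 0 in all 4 Gr-1+ libraries. Dendritic cell genes (6) summed to 5.46 to 18.6 FPKM in Gr-1+, against 11.8 to 68.2 FPKM in Gr-1-, with Clec9a below 1 FPKM throughout. T cell genes (6) summed to 0.441 to 1.63 FPKM in Gr-1+, against 1.13 to 9.70 FPKM in Gr-1-, with Cd4 below 1 FPKM throughout. The sum of 11 neutrophil genes was 256 to 1090 FPKM in Gr-1+, against 59.6 to 146 FPKM in Gr-1-. The part of these cells in the Ddit4 and Sgk1 differences was not tested.

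**Figure D4:**
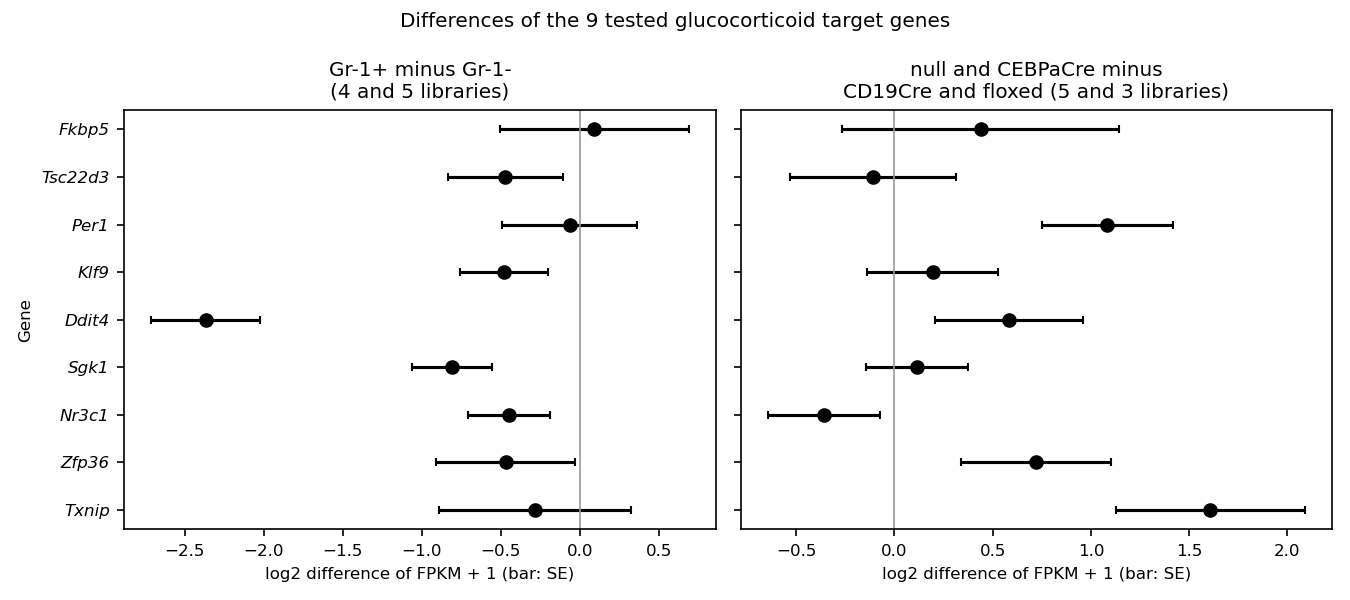
Log2 differences with SE bars of the 9 genes that entered the fits, Gr-1+ minus Gr-1- in 1 panel and deleted minus intact in the other. Ddit4 lies at -2.37 between subsets, and Per1 (1.08) and Txnip (1.61) lie farthest from 0 between genotypes.

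The series also asks what changes where Fcgr2 is removed from myeloid cells. The libraries labelled null or CEBPaCre (deleted, 5) were set against those labelled CD19Cre or floxed (intact, 3) with the subset as a covariate, leaving out CD11cCre. None of the 9 genes was called, and neither was any of 10429 genes tested (0%), of which 1470 (14.1%) had an unadjusted p under 0.05. Txnip averaged 113 ± 52.1 FPKM in deleted and 44.0 ± 33.6 FPKM in intact libraries, a log2 difference of 1.61 ± 0.48 (limma adjusted p = 0.306). Per1 averaged 4.93 ± 1.08 FPKM in deleted and 2.12 ± 1.75 FPKM in intact libraries, a log2 difference of 1.08 ± 0.33 (limma adjusted p = 0.306).

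These 2 genes had an unadjusted p under 0.05, and the other 7 did not. Fkbp5 differed by 0.44 ± 0.71 (limma adjusted p = 0.768), with 17.2 ± 15.7 FPKM in deleted and 10.7 ± 5.97 FPKM in intact libraries. Nr3c1 differed by -0.36 ± 0.29 (limma adjusted p = 0.557) and Tsc22d3 by -0.11 ± 0.42 (limma adjusted p = 0.908). Whether the subset difference itself changed with the deletion was tested by an interaction term, which passed for none of the 9 genes (limma adjusted p 0.88 to 0.99), while 0.0863% of all genes tested were called and 3.25% had an unadjusted p under 0.05.

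The Txnip and Per1 values followed the CD19Cre libraries. Txnip was at 21.9 and 27.5 FPKM in CD19Cre and 70.02 to 183 FPKM in the other 7. Per1 was at 1.08 and 1.15 FPKM in CD19Cre and 3.63 to 6.89 FPKM in the other 7. The floxed library, also intact, lay among those other libraries with 82.7 FPKM of Txnip and 4.14 FPKM of Per1. Over all genes tested, 9.02% were below the other 7 libraries in both CD19Cre libraries and 18.6% were above them. Nr3c1 was among the latter, by a small margin.

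Leaving out the floxed library made the intact group the CD19Cre libraries alone. Then 2551 genes were called, among them Txnip (log2 difference 2.07, limma adjusted p = 0.0119), Per1 (1.46, limma adjusted p = 0.00863) and Nr3c1 (-0.65, limma adjusted p = 0.0458). With libraries weighted by their fit to the model, Txnip (1.96, limma adjusted p = 0.0422) and Per1 (1.39, limma adjusted p = 0.0418) were called. Without both CD19Cre libraries, the log2 difference was 0.43 for Txnip (limma adjusted p = 0.801) and 0.11 for Per1 (limma adjusted p = 0.923). The lower ribosomal share of the CD19Cre libraries moves with these differences, and its part in them was not tested.

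Other genes of the pathway were taken from lists of known genes. The lists were chosen with earlier results known, so their counts are a description, to be read against the 14.8% of all genes called. Of 15 tested genes of the receptor complex, none passed as higher in Gr-1+, 2 passed as higher in Gr-1- and 13 missed the threshold, a count near that share (median log2 difference -0.18). Both were Hsp90 genes, which hold the receptor ready for hormone. Hsp90aa1 averaged 32.0 ± 7.05 FPKM in Gr-1+, against 66.2 ± 12.9 FPKM in Gr-1- libraries (limma adjusted p = 0.00786). Hsp90ab1 averaged 115 ± 17.7 FPKM in Gr-1+, against 229 ± 68.1 FPKM in Gr-1- (limma adjusted p = 0.0239), a call lost without either Gr-1+ null library or without the Gr-1- CEBPaCre library, at adjusted p up to 0.0657.

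Hsd11b1 encodes the enzyme that turns inactive cortisone and 11-dehydrocorticosterone into active hormone inside cells. It was at 15.3 and 14.4 FPKM in null, 8.01 in CEBPaCre and 14.9 in CD19Cre Gr-1+ libraries. Gr-1- libraries held 59.9 FPKM in null, 65.7 in CEBPaCre, 53.7 in CD11cCre, 63.9 in CD19Cre and 50.7 in floxed. The subsets did not overlap, and Gr-1- was 4.32-fold higher (log2 difference -2.11 ± 0.22, limma adjusted p = 7.7e-05). Of the 5 tested genes of glucocorticoid metabolism and export it was the only one called, against 14.8% over all genes, and its spread among Gr-1- libraries, 1.29-fold, was far smaller than that of Fkbp5.

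Of 15 coregulators tested, 1 passed as higher in Gr-1+ and 2 as higher in Gr-1-, and 12 missed the threshold, against 14.8% called over all genes. Carm1, an arginine methyltransferase and coactivator, was 2.00-fold higher in Gr-1- (limma adjusted p = 0.00883). Nfkb1, a subunit of NF-kB that the receptor opposes, was 1.86-fold higher in Gr-1- (limma adjusted p = 0.0125). Hdac2, a deacetylase recruited in repression, averaged 22.8 ± 2.90 FPKM in Gr-1+, against 14.8 ± 2.35 FPKM in Gr-1- (limma adjusted p = 0.0486), a call lost in 10 of 16 alternatives with adjusted p up to 0.133.

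Of 26 further genes known to be induced by glucocorticoids, 9 passed as higher in Gr-1+ and 8 as higher in Gr-1-, and 9 missed the threshold (median -0.42). The 17 called genes went in both directions, and 14.8% of all genes tested were called. Higher in Gr-1+ were Msr1, a scavenger receptor, at 79.5 ± 47.2 FPKM in Gr-1+, against 6.73 ± 2.45 FPKM in Gr-1- (limma adjusted p = 8.2e-05), and Anxa1, an anti-inflammatory phospholipid-binding protein, at 622 ± 151 FPKM in Gr-1+, against 171 ± 77.2 FPKM in Gr-1- (limma adjusted p = 0.00168). Higher in Gr-1- were Tgfbr3, a TGF-beta co-receptor, at 0.866 ± 0.411 FPKM in Gr-1+, against 17.7 ± 7.96 FPKM in Gr-1- (limma adjusted p = 7.2e-05), and Zbtb16, a transcription factor, at 1.85 ± 1.02 FPKM in Gr-1+, against 10.2 ± 2.88 FPKM in Gr-1- (limma adjusted p = 0.00105). In the order of libraries these 26 genes shared a median of 8.5 of 16 pairs with Fkbp5, and Mt1 shared the most.

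Of 10 genes known to be repressed by glucocorticoids, 2 passed as higher in Gr-1+ and 3 as higher in Gr-1-, and 5 missed the threshold, against 14.8% called over all genes (median -0.089). The cytokines Il1b, 5.92-fold (limma adjusted p = 0.0037), and Tnf, 3.88-fold (limma adjusted p = 0.00331), were higher in Gr-1-. So was the chemokine Ccl5, at 2.45 ± 1.97 FPKM in Gr-1+, against 146 ± 147 FPKM in Gr-1- (limma adjusted p = 0.00155); NK cells also express Ccl5, and the NK sums above move with it, which was not tested. Ccl2, which draws classical monocytes into tissue, averaged 22.9 ± 22.7 FPKM in Gr-1+, against 1.30 ± 1.16 FPKM in Gr-1- (limma adjusted p = 0.0023).

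Of 9 clock genes tested beside Per1, 1 passed as higher in Gr-1+ and 2 as higher in Gr-1-, and 6 missed the threshold, against 14.8% called over all genes. Bhlhe40, a repressor also called DEC1, averaged 26.6 ± 5.15 FPKM in Gr-1+, against 100.5 ± 34.1 FPKM in Gr-1- (limma adjusted p = 7.0e-04). Tef, a PAR bZIP factor driven by the clock, averaged 3.46 ± 1.99 FPKM in Gr-1+, against 11.3 ± 4.42 FPKM in Gr-1- (limma adjusted p = 0.0154).

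Of 24 tested paralogs of the 10 genes, 22 did not pass. Of the other two, both arrestin-domain relatives of Txnip, Arrdc4 averaged 23.9 ± 8.65 FPKM in Gr-1+, against 5.25 ± 2.48 FPKM in Gr-1- (limma adjusted p = 0.0024). Arrdc2 averaged 6.16 ± 1.16 FPKM in Gr-1+, against 12.5 ± 1.21 FPKM in Gr-1- (limma adjusted p = 0.00388), and it counts in the induced list too. None of 19 binding or pathway partners of the 10 genes was called. Of 15 immediate early genes, 14 did not pass, and Nr4a1, the receptor needed for nonclassical monocytes, was 3.27-fold higher in Gr-1- (limma adjusted p = 0.00403). Between deleted and intact libraries, 0 genes of any of these lists were called.

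**Figure D5:**
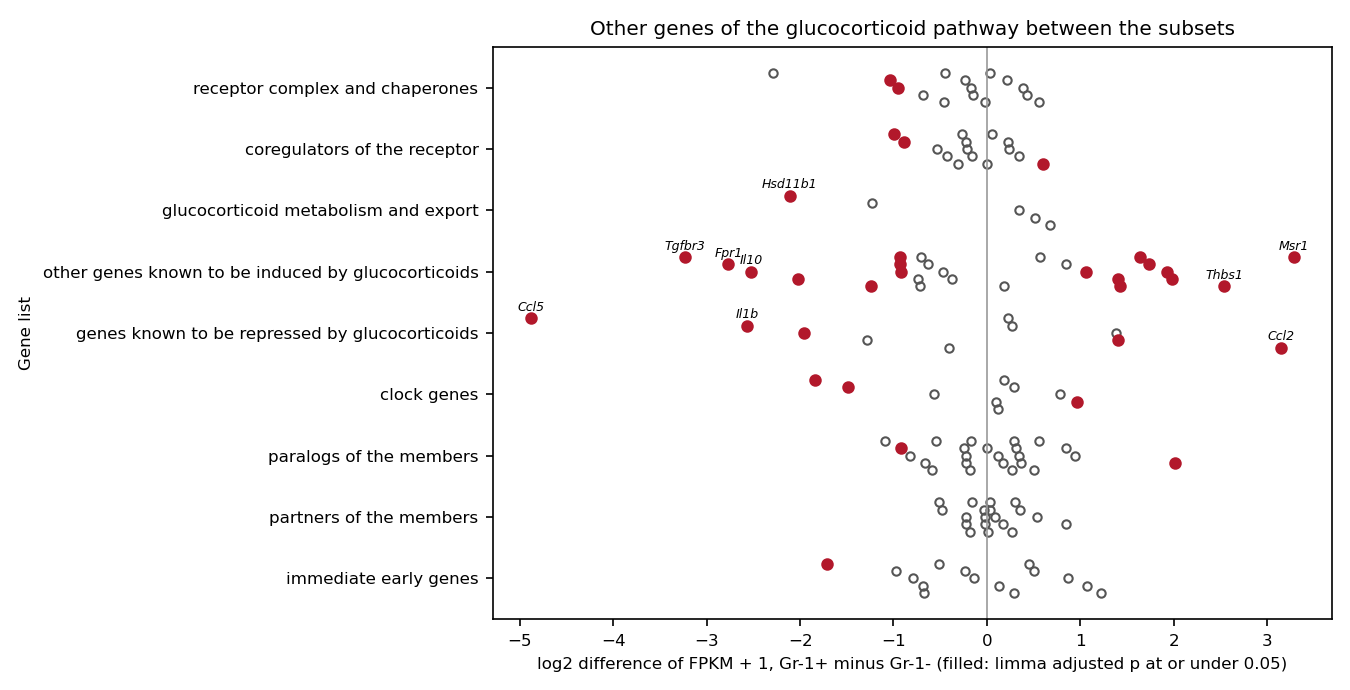
Log2 difference, Gr-1+ minus Gr-1-, of every tested gene in each list of glucocorticoid-related genes, with called and uncalled genes marked apart. The induced list holds 9 genes called as higher in Gr-1+ and 8 called as higher in Gr-1-, and Hsd11b1 stands alone at -2.11 in the metabolism list.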

How the data were processed

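Sorted blood monocytes were sequenced in 9 libraries. Per the submitters' processing notes, TopHat2 2.0.8, Cufflinks 2.1.1 and mm9 were used; the annotation and settings are not given in the sources used here. The authors deposited FPKM values, 1 per gene symbol and library, with 0 value columns left unused.

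Differences were fitted in R 4.3.3 with limma 3.58.1 (lmFit, eBayes with a trend) on log2(FPKM + 1), a scale that understates changes of low genes. Genes entered when their mean reached 1 FPKM and 2 or more of the fitted libraries were above 0. p-values were adjusted by Benjamini-Hochberg over all genes, and the fit was tested on simulated data. Nothing says that libraries come from separate mice, so p-values measure the spread between libraries. Folds between subsets are ratios of geometric means of FPKM + 1. Folds within a genotype and ranges over libraries (highest over lowest) are ratios of FPKM. Python 3.11.15 was used for orders and motifs.

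The 10 genes and the lists were chosen with earlier results of these data known. Named list genes are up to 4 called genes per list with the smallest p and at least 5 FPKM in the higher group. The B cell marker sum is not reported here.

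Same-genotype libraries were checked for pairing: their deviations from the subset means correlated across genes at 0.131 to 0.561, against -0.338 to 0.214 for other pairs. A replicate block by genotype was one alternative, and the others were a pseudocount of 0.1, other filters, median scaling, library weights and leaving out each library.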

Additional observations from a re-analysis of the deposited data

Results flagged for a closer look

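Zfp36 in the CD11cCre Gr-1- library was at 1124 FPKM, far from the other 4 Gr-1- libraries, which ran from 329 to 539 FPKM. Of 20 groups examined, 2 for each of the 10 genes, it was the 1 with a library this far from the rest. About 1 group in 20 is marked by chance. The measure was the gap to the next library over the range of the subset, 0.736 for Zfp36 against a cutoff of 0.71. Fkbp5 in the Gr-1- null library fell just short of the cutoff, at 0.703.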

How the results depend on the processing

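Between subsets 1544 genes were called; 2376 were called with library weights and 2712 with genotype as a replicate block, and leaving out single libraries gave 1128 to 1578. Between deleted and intact libraries the count of 0 became 673 with weights and 5 without both CD19Cre libraries, and leaving out single libraries gave 0 to 2551, the highest without the floxed one. The interaction, 9 genes, fell to 5 with median scaling, an alternative chosen after seeing the data. The causes were not tested.

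Of the deletion differences of the 10 genes, Fkbp5 turned to -0.018 with weights, to -0.30 without the Gr-1- null and to -0.088 without the floxed library, and leaving out single libraries gave -0.30 to 0.96; without both CD19Cre libraries it was 1.82. Tsc22d3 turned to 0.029 without the first Gr-1+ null, 0.010 without the Gr-1+ CD19Cre, 0.21 without the Gr-1- null and 0.29 without both CD19Cre libraries (single libraries left out, -0.49 to 0.21). Ddit4 turned to -0.13 without both CD19Cre libraries, and Nr3c1 to 0.073 without the Gr-1+ CD19Cre library and 0.47 without both (single libraries left out, -0.65 to 0.073). The subset difference of Ddit4 ran from -2.70 to -2.15 over 16 alternatives, and 1 to 3 of the 9 genes were past the threshold, which the choice of genes leaves without weight. Depth is unknown without read counts, so no detection limit can be given for Cd163, which was below the filter at 1 FPKM.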
